A study of Homo sapiens and Mus musculus with 54 samples.

Results

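The AhR binding list of mouse liver held 41678 genomic intervals on the mm10 build, of 434604 intervals in the 6 lists of the series. Every interval of that list was taken, with no selection by value. It belongs to AhR ChIP-seq of mouse liver at 4 weeks, with 3 libraries of control mice (labelled Control), 3 libraries of vitamin B2-deficient mice (labelled B2_minus) and an input library for each. The labels state no strain, sex, age or genotype for these mice. The series also profiled H3K27ac in hepatocytes carrying a floxed AhR gene (Control or B2_minus for 4 weeks, each with Ad_Cont or Ad_Cre, 3 libraries per combination). In the human liver cancer line HepG2 at day 12, kept as control (Cont) or without vitamin B2 (B2_minus), AhR had 2 libraries per group and H3K27ac 5. A further HepG2 H3K27ac experiment used DMSO or an AhR inhibitor, and the list named for the inhibitor was not used here. The whole series has 54 libraries.

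AhR, the aryl hydrocarbon receptor, is a ligand-activated transcription factor of the bHLH-PAS family. On binding a ligand, such as a dioxin or a breakdown product of tryptophan, it moves from the cytoplasm to the nucleus, pairs with ARNT and binds DNA, and in the liver it is best known for inducing cytochrome P450 enzymes that metabolise foreign compounds. H3K27ac, the acetylation of lysine 27 of histone H3, marks active enhancers and promoters.

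The list gives positions without a value per library. Depth behind a peak is therefore unknown, control and B2-deficient livers could not be compared, and no count of peaks below is a count for either group. The tissue could not be checked against marker genes, since the lists hold no expression values. The labels do not say which of the 6 AhR libraries contributed to a peak. All intervals printed beside shares are 95% Wilson intervals for counting error, and they are too narrow because neighbouring peaks are not independent. Differences between classes of peaks, between chromosomes and between lists are described and were not tested.

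AhR peaks were spread over all 19 autosomes and the X chromosome, and were sparse on X. The autosomes carried 17.6 ± 3.99 AhR peaks per Mb (mean and SD, n = 19 autosomes), measured over the stretch from the first to the last interval of either mouse list. The lowest autosome was chromosome 14 with 12.4 per Mb, and the highest were chromosome 11 with 27.1 and chromosome 19 with 26.98. The X chromosome had 554 peaks, or 3.40 per Mb, which was 0.198 of the density over the autosomes together (interval from counting error 0.182 to 0.215). Hepatocyte H3K27ac regions were spread in the same way, with 29.1 ± 4.21 per Mb on autosomes and 5.40 on X. There were 59.8 ± 5.62 AhR peaks for every 100 H3K27ac regions on autosomes and 63.0 on X. The ratio of the lists on X therefore lay within the autosomal range of 49.6 to 72.0, while both densities lay far below it. Only 7 peaks fell elsewhere, 2 of them on Y and 5 on 4 contigs outside the assembled chromosomes.

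**Figure D1:**
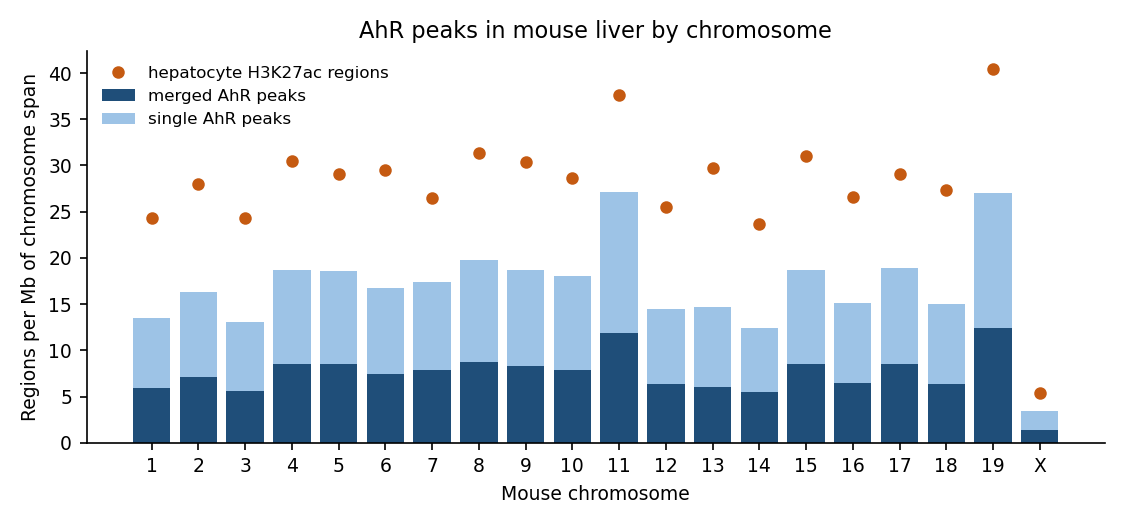
AhR peaks in mouse liver per Mb of chromosome span (bars, merged peaks at the bottom and single peaks above) and hepatocyte H3K27ac regions per Mb (points), by mouse chromosome. Chromosomes 11 and 19 stand highest with 27.1 and 26.98 AhR peaks per Mb, and X lowest with 3.40.

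The X chromosome differed in other measures too. Its AhR peaks overlapped an H3K27ac region in 28.3% of cases (24.7 to 32.2), below all 19 autosomes, which ran from 33.6% on chromosome 7 to 47.6% on chromosome 13. Of its AhR peaks, 46.8% lay over 10 kb from the nearest H3K27ac centre, against 17.8% to 27.1% on autosomes. The median distance to the nearest AhR peak was 9642.5 bp on X and 2087.25 to 3802 bp on autosomes. Fewer AhR peaks and H3K27ac regions per Mb on X lengthen both kinds of distance by construction. Median width was 256 bp on X and 248 to 251 bp on autosomes.

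The peaks were unevenly spread within chromosomes as well. Of 2570 windows of 1 Mb, 426 (16.6%) held no AhR peak, the median window held 9, and 390 windows (15.2%) held 50% of all peaks. H3K27ac regions were slightly less concentrated, with 469 windows (18.2%) for the same share. The fullest window, at 80 to 81 Mb of chromosome 10, held 166 AhR peaks and 131 H3K27ac regions. The next were 12 to 13 Mb of chromosome 18 with 145 AhR peaks and 19 to 20 Mb of chromosome 7 with 122. Across the 2570 windows the number of AhR peaks followed the number of H3K27ac regions, with Pearson's r of 0.866 and Spearman's rho of 0.925, as a description of windows that are not independent of their neighbours. Single windows departed from that relation in both directions. The window at 140 to 141 Mb of chromosome 7 held 68 AhR peaks and 21 H3K27ac regions, whereas that at 8 to 9 Mb of chromosome 11 held 9 AhR peaks and 58 regions. Between consecutive AhR peaks on the autosomes and X, the longest stretch ran for 12.4 Mb on X, between 23693122 and 36111797, and held 4 H3K27ac regions. The longest on an autosome ran for 7.95 Mb on chromosome 5, between 54356485 and 62305584, and held 8.

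The name of each peak ends in a number that gives how many peaks were merged into it. A peak with 1 is called single here, and a peak with 2 or more is called merged. Of the list, 23240 peaks were single (55.8%) and 18438 merged (44.2%). Nearly all merged peaks combined 2 peaks (18355), while 72 combined 3 and 11 combined 4. On autosomes the merged share ran from 40.6% on chromosome 13 to 46.1% on chromosome 5 (44.2 ± 1.36, mean and SD, n = 19), and on X it was 39.7%. The labels do not say which peak sets were merged. The merge number therefore cannot be read as a number of libraries, and the merged share cannot be read as control against B2-deficient livers.

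Peaks were narrow. Widths ran from 201 to 1200 bp with a median of 250 bp, and 80% lay between 215 and 319 bp. The shortest width of 201 bp was shared by 123 peaks, all of them single. Median width was 239 bp for single peaks, 261 bp for peaks merged from 2, 599.5 bp from 3 and 729 bp from 4. The merged share accordingly was 7.74% among peaks below 220 bp and 68.1% among those of 400 bp or more.

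The 11 peaks merged from 4 had widths of 579 to 1200 bp, and 10 of them lay in clusters of 5 or more AhR peaks. The widest peak of the list, chr3:138291756-138292955, was one of them. It covered 1200 bp, overlapped no H3K27ac region, and its nearest H3K27ac centre lay 9620 bp away. The second widest, chr19:5823946-5825042, covered 1097 bp, also combined 4 peaks, overlapped H3K27ac and lay in a cluster of 49 AhR peaks. That same cluster held another peak merged from 4, chr19:5842645-5843568, of 924 bp and without H3K27ac overlap. Of the 10 widest peaks all were merged, against 68.1% of peaks of 400 bp or more. H3K27ac overlapped 4 of these 10, near the 41.5% of the whole list. Among all 83 peaks merged from 3 or more, 63 (75.9%) lay in clusters of 5 or more, against 33.5% of the whole list.

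AhR peaks lay close to each other. The median distance from a peak's centre to that of its nearest neighbour was 2786 bp (order-statistic interval 2713.5 to 2860.5), and 28.2% of peaks had a neighbour within 1 kb. At the other end, 7.21% lay over 50 kb from any other. The shortest distance was 231 bp. In bins of 100 bp, distances between consecutive peaks were most frequent at 500 to 600 bp, with 1155 pairs, and 400 to 500 bp, with 1140. At 200 to 300 bp there were 151 pairs. Peaks were 201 bp wide or more, with a median of 250 bp, so few could lie that close without overlapping. HepG2 likewise had 169 pairs at 200 to 300 bp and 785 at 400 to 500 bp. Human AhR peaks in HepG2 were more numerous (56739) and more scattered, with a median of 5764 bp (5671 to 5874.5) and 15.9% within 1 kb. Organism, tissue against cell line, and the number of libraries differ between those lists and cannot be told apart.

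**Figure D2:**
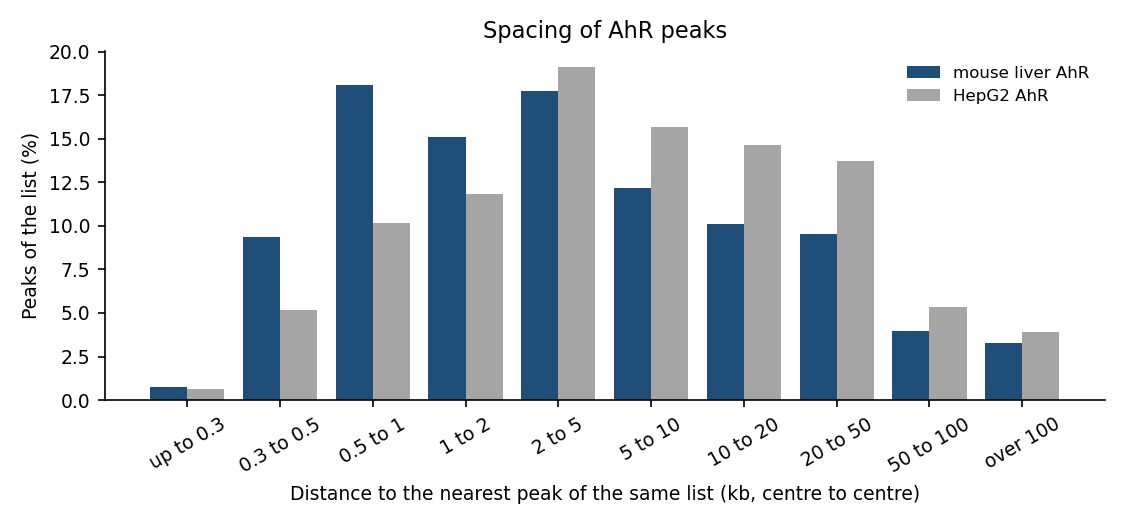
Share of AhR peaks (%) by distance to the nearest peak of the same list (kb, centre to centre) in mouse liver and in HepG2. In mouse liver 28.2% of the peaks had a neighbour within 1 kb, against 15.9% in HepG2.

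Linking neighbours whose centres lay within 10 kb put 30492 peaks (73.2%) into 8198 clusters and left 11186 alone. Clusters of 5 or more peaks numbered 1715 and held 33.5% of the list. Clusters of 10 or more numbered 371, held 5646 peaks (13.5%) and occurred on all 20 chromosomes counted. In HepG2 the same rule put 62.5% of AhR peaks into clusters, and 149 clusters of 10 or more held 3.22%. The largest cluster had 90 peaks in mouse liver and 36 in HepG2.

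The 371 clusters of 10 or more spanned 9.20 to 121 kb with a median of 31.2 kb. Within them lay a median of 4.23 AhR peaks per 10 kb. The largest, chr18:12635409-12756762, held 90 peaks in 121 kb with a median distance of 952.5 bp between neighbours. Of these 90 peaks, 33 were merged (36.7%) and 22 overlapped H3K27ac (24.4%), and the cluster held 28 H3K27ac regions. It lies in the second fullest 1-Mb window. Mouse gene positions were not used here, and the clusters are therefore given by position alone.

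The next 9 clusters by number of peaks held 39 to 51. The cluster chr3:146568240-146633361 had 51 peaks, of which 14 overlapped H3K27ac. The cluster chr19:5793052-5851772 had 49, of which 36 did (73.5%), the highest share among these 10. The cluster chr4:108042792-108140508 also had 49, of which 13 were merged and 17 overlapped H3K27ac. On chromosome 15 there were a pair of such clusters, chr15:85702643-85793850 with 48 peaks and 15 in H3K27ac, and chr15:58976490-59084911 with 40 and 27. The remaining 4 were chr11:16742320-16827063 with 43 peaks and 19 in H3K27ac, chr8:46470106-46552005 with 42 and 12, chr7:99151426-99230333 with 41 and 23, and chr2:31449926-31523854 with 39 and 14. These 10 clusters thus ranged from 24.4% to 73.5% of peaks in H3K27ac.

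The densest of the clusters of 10 or more was another, chr4:150850974-150874711, with 35 AhR peaks in 23.7 kb, or 14.7 per 10 kb. It held 21 merged peaks, 23 peaks in H3K27ac and 22 H3K27ac regions. The second densest, chr9:106230527-106248042, had 25 peaks in 17.5 kb, of which 5 overlapped H3K27ac.

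Merged and single peaks were mostly mixed. Of neighbouring peaks 2 to 5 kb apart, 52.1% were of the same class, against 50.0% if classes were independent. The excess was largest below 500 bp, with 54.8% against 51.7%. At 50 kb or more the share was below that of independent classes, with 52.3% against 53.0%. Over the 371 clusters of 10 or more, the merged share was 50.5 ± 15.2% (mean and SD), from 3.57% to 90.9%. Counting intervals are wide in clusters of this size. The interval of a cluster's own share lay below the 44.2% of the list in 8 clusters and above it in 35. Among 371 such intervals some would miss by counting error alone, so these counts do not show that single clusters differ. The peaks of all these clusters together had a merged share of 49.6%. That is above the share of the list and by itself favours intervals above 44.2%. Both lowest merged shares came from neighbours on chromosome 11. The cluster chr11:16742320-16827063 had 4 merged of 43 peaks (9.30%, interval 3.68 to 21.6), and chr11:16841171-16897074, which starts 14.1 kb further on, had 1 merged of 28 (3.57%, interval 0.633 to 17.7). Together that made 5 of 71 (7.04%). The 71 peaks were not narrow, with a median width of 290 bp against 239 bp for single peaks in general. Of them, 25 overlapped H3K27ac (35.2%), near the 36.4% of all single peaks and below the 41.5% of the list. Over the whole stretch of the pair, the 14.1 kb between the clusters included, 42 of 65 H3K27ac regions were merged (64.6%). In the whole H3K27ac list 77.3% were merged, and in the 1 Mb on either side of the pair 41 of 45 (91.1%). In those flanks 5 of 18 AhR peaks were merged (27.8%). These regions were chosen for their low share, so the values are a description. At the other end, chr11:94133300-94148404 had 10 merged of 11 peaks, with 9 in H3K27ac.

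**Figure D3:**
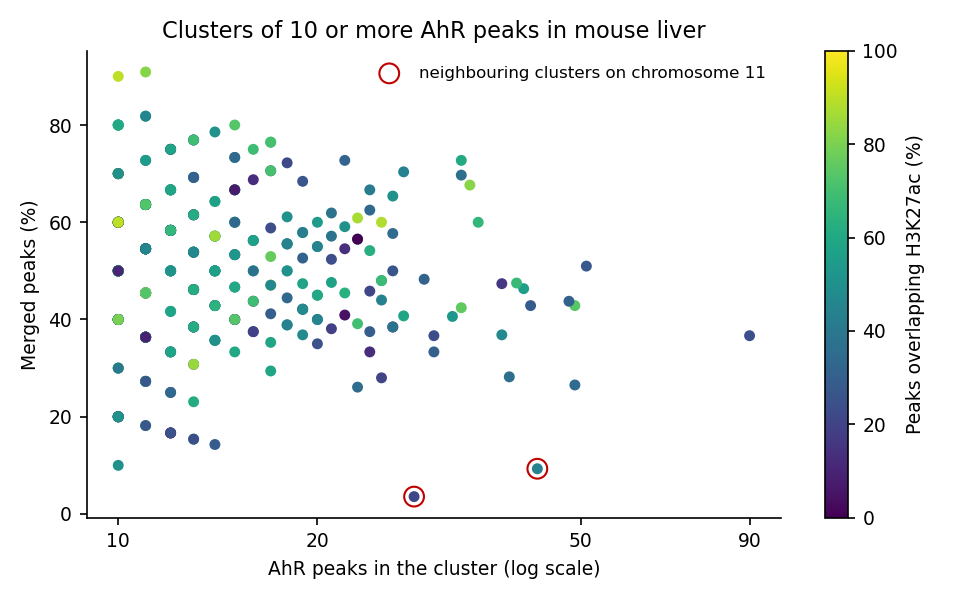
Clusters of 10 or more AhR peaks in mouse liver, with the number of peaks on a log axis against the share of merged peaks (%), coloured by the share overlapping H3K27ac (%). Points can lie on top of each other; the circled pair on chromosome 11 has 4 of 43 and 1 of 28 peaks merged.

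Of the AhR peaks, 17282 overlapped a hepatocyte H3K27ac region by 1 bp or more (41.5%), and 18438 merged peaks did so in 47.9% of cases against 36.4% of the 23240 single peaks. The gap of 11.5 percentage points (interval 10.5 to 12.4) had the same sign on all 20 chromosomes, from 6.71 to 17.5 points. Merged peaks had the higher share in all 6 classes of width and in 9 of 10 classes of spacing, the exception being the 303 peaks with a neighbour within 300 bp (32.9% of merged and 37.4% of single peaks). Among peaks of 240 to below 260 bp, 48.6% of merged and 38.7% of single peaks overlapped H3K27ac, and among those of 400 bp or more 42.5% and 31.9% did. These shares count listed regions, and absence from the H3K27ac list is not absence of the mark. In the opposite direction, an AhR peak lay in 14.5% of single H3K27ac regions and in 28.0% of those merged from 2. The share was 32.8% for those merged from 3 and 47.8% (41.4 to 54.3) for the 228 merged from 4 or more. A wider region can meet a peak more often by the 1 bp rule, and H3K27ac regions of like width were not compared.

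Overlap with H3K27ac was most frequent at intermediate spacing. Peaks with the nearest AhR peak at over 2 to 5 kb overlapped H3K27ac in 48.6% of cases (47.4 to 49.7). The share was 38.7% (37.6 to 39.8) at over 500 to 1000 bp and 32.0% (29.6 to 34.5) beyond 100 kb. By cluster size it was 37.3% for peaks that stood alone, 45.4% in clusters of 5 to 9, 48.5% in clusters of 10 to 19 and 41.8% (39.6 to 44.1) in the 63 clusters of 20 or more. The merged share followed a like course, with 37.6% for peaks alone, 51.4% in clusters of 10 to 19 and 45.9% in the largest. In HepG2 the overlap with HepG2 H3K27ac did not drop in the largest clusters. It was 66.9% for peaks alone, 74.8% in clusters of 10 to 19 and 80.6% (73.8 to 86.0) in the 7 of 20 or more. Both HepG2 lists come from the same cell line. The mouse overlap sets AhR peaks of liver against H3K27ac of hepatocytes with floxed AhR, given Ad_Cont or Ad_Cre. These differences cannot be told apart.

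**Figure D4:**
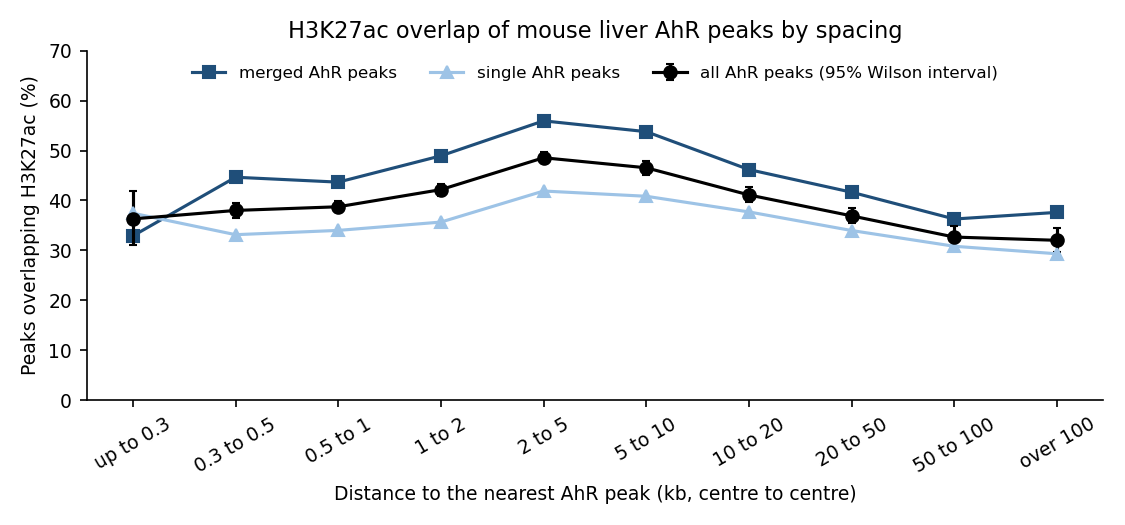
Share of mouse liver AhR peaks overlapping a hepatocyte H3K27ac region (%) by distance to the nearest AhR peak (kb), for all peaks with 95% Wilson intervals, merged peaks and single peaks. The share for all peaks is highest, 48.6%, at over 2 to 5 kb, and 32.0% beyond 100 kb.

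Clusters could lie wholly outside the H3K27ac list. In 3 of the 371 clusters of 10 or more no peak overlapped H3K27ac, and in 3 all did. The largest of the first kind, chr9:107550518-107593437, had 23 AhR peaks in 42.9 kb, 13 of them merged, and held no H3K27ac region. The others were chr12:104336927-104348918 with 12 peaks and chr8:124555234-124572792 with 10, again without a region. The clusters with every peak in H3K27ac were chr15:3215256-3251294 and chr5:142412744-142445077 with 11 peaks each, and chr19:11996105-12013507 with 10.

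AhR peaks near an H3K27ac region mostly lay close to its centre. Of the AhR peaks, 19533 (46.9%) had an H3K27ac centre within 1 kb, at a median of 43 bp. Around an AhR centre, H3K27ac centres were densest within 50 bp, at 2567 per kb and per 1000 AhR peaks with both sides counted. They were sparsest nearby at 200 to 250 bp, with 131. At 350 to 400 bp they were denser again, with 284, before declining to 196 at 800 to 1000 bp. H3K27ac regions do not overlap each other and had a median width of 276 bp, which by construction limits how close their centres can lie. HepG2 had a like dip, with 100 at 200 to 250 bp and 308 at 350 to 400 bp. Part of the AhR list lay far from any listed H3K27ac region: 21.6% of peaks were over 10 kb from any such centre and 704 (1.69%) over 100 kb.

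The density of AhR peaks did not decline smoothly with distance from H3K27ac. Per Mb of sequence at a given distance from the nearest H3K27ac centre, there were 22.8 AhR peaks at 2 to 2.5 kb and 25.1 at 2.5 to 3 kb, then 43.4 at 3 to 3.5 kb and 39.6 at 3.5 to 4 kb. The density 500 bp beyond 3 kb was thus 1.73 times that 500 bp before it (1.58 to 1.88 from counting error), and 1.69 to 1.76 times with each of the 20 chromosomes left out in turn. It was 2.06 times for merged peaks and 1.51 times for single peaks. The merged share also differed across that distance, from 39.4% at 2.5 to 3 kb to 46.9% at 3 to 3.5 kb.

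Gaps between neighbouring H3K27ac centres gave another view of the same peaks and regions. Only gaps of 6 kb or more hold sequence 3 kb or more from the nearest centre. A step in density at 3 kb therefore carries over to the gap counts by construction, and they are not separate support for it. Gaps of 5 to 6 kb held 12.8 AhR peaks without H3K27ac overlap per 100 gaps, and gaps of 6 to 7 kb held 29.6, a ratio of 2.31 (1.98 to 2.70). In gaps of 5 to 6 kb, 19.03% of those peaks lay in the middle 20% of the gap. That share was 28.6% at 6 to 7 kb, 33.0% at 7 to 8 kb, 34.1% at 8 to 9 kb and 27.6% at 9 to 10 kb. Counting each gap with a peak once, the ratio was 1.56. In HepG2 the corresponding gaps held 4.46 and 10.9 AhR peaks per 100, a ratio of 2.43 (1.99 to 2.99), and the density beyond and before 3 kb had a ratio of 1.18 (1.06 to 1.32). The distance of 3 kb was noticed in the data and then measured in the same data.

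**Figure D5:**
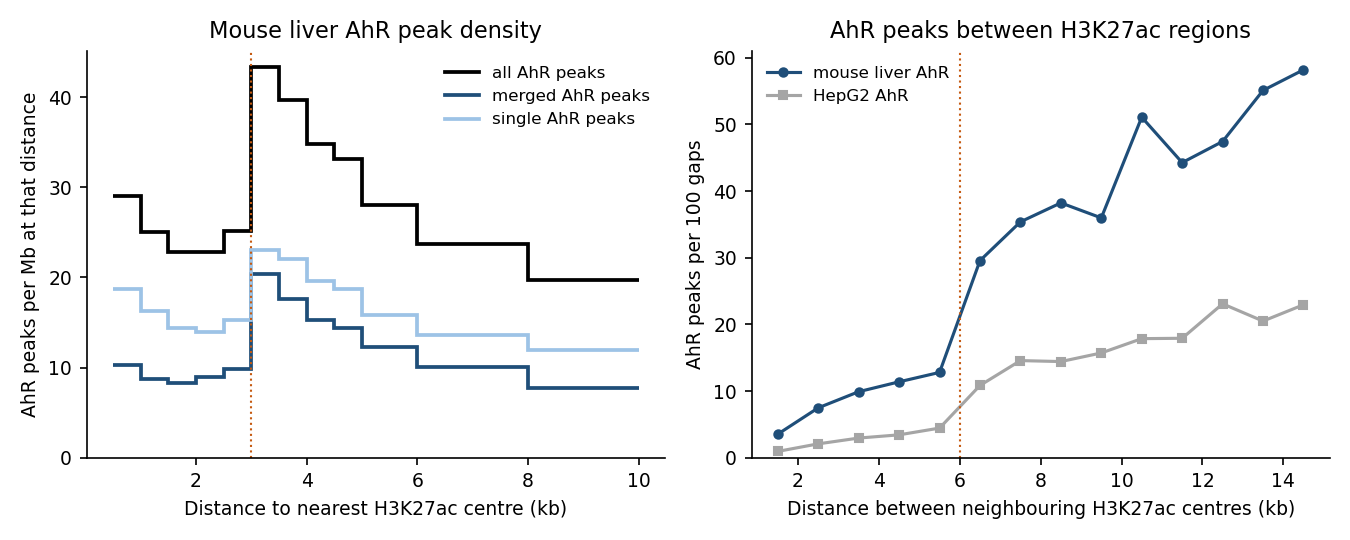
Left, mouse liver AhR peaks per Mb of sequence by distance to the nearest hepatocyte H3K27ac centre (kb) for all, merged and single peaks; right, AhR peaks without H3K27ac overlap per 100 gaps by distance between neighbouring H3K27ac centres (kb) in mouse liver and HepG2. Dotted lines mark 3 and 6 kb, where density goes from 25.1 to 43.4 per Mb and the mouse gap count from 12.8 to 29.6.

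Gene starts could be placed for HepG2 from RefSeq promoters of GRCh38.p14, the assembly behind hg38. HepG2 H3K27ac centres numbered 26.2 per Mb at 2.5 to 3 kb from the nearest gene start, 82.5 at 3 to 3.5 kb and 52.4 within 500 bp. All 6 bins of 500 bp inside 3 kb of gene starts thus lay below the 82.5 just beyond it. HepG2 AhR peaks had no such edge, with 34.0 and 32.6 per Mb at those distances and 81.2 within 500 bp. Of HepG2 AhR peaks at 3 to 4 kb from an H3K27ac centre, 33.3% (30.9 to 35.8) lay within 1 kb of a gene start, against 1.57% of those overlapping H3K27ac, 6.12% of the others within 3 kb of an H3K27ac centre, 16.5% of those over 10 kb away and 6.30% of all. Whether the mouse H3K27ac list has the same edge was not tested, since mouse gene starts were not used here. An AhR peak outside the hepatocyte H3K27ac list, whether single or in one of the clusters above, is therefore not shown to lie in chromatin without the mark.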

How the data were processed

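AhR ChIP-seq of mouse liver had 3 Control and 3 B2_minus libraries. Per the labels' protocols, chromatin for AhR was crosslinked with disuccinimidyl glutarate and then formaldehyde, that for H3K27ac with formaldehyde alone, and both were sonicated. Bowtie2 and HOMER, and the builds hg38 and mm10, are named in the submitters' processing notes, with no versions. The authors deposited positions only (peak name, chromosome, start, end, strand), pooled over libraries. The labels state neither the caller settings nor the peak sets merged. Read depth is unknown.

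Of the 6 lists 4 were used. Positions were read as 1-based. Peaks were linked into clusters at centre distances up to 10000 bp, and overlap needed 1 bp or more. Named regions were the 10 clusters with the most peaks, the widest and narrowest peaks and those with the highest merge number; clusters at the extremes of merged share, H3K27ac share and density, and extreme windows, were named after their values were seen. The list and these measures were chosen with earlier results of these data known. No hypothesis test was run. Computation used pandas 2.3.3 with NumPy 2.4.6 under Python 3.11.15, SciPy 1.17.1 gave intervals and figures were drawn in Matplotlib 3.10.9, and overlap, clustering and density steps were tested on simulated data. Distance to gene starts in HepG2 used RefSeq promoters of GRCh38.p14. Alternatives covered overlap rules, cluster links and merged peaks alone. Mouse genes, sequences and motifs were not analysed here.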

Additional observations from a re-analysis of the deposited data

How the results depend on the processing

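No paired analysis was possible because the lists pool libraries and no result came from a test. A value counted as moved when it left its counting interval, which is narrow at this list size, and the number of clusters when it differed by over 1.5 times. By these rules 39 of 70 alternatives moved a value and 31 did not. The rules did not check for a reversed direction. Overlap with H3K27ac was 39.8% of all, 34.6% of single and 46.3% of merged AhR peaks with 50% of the shorter interval shared, 43.6%, 39.0% and 49.4% with centres within 500 bp, and 36.3%, 31.1% and 42.9% against merged H3K27ac regions alone. The stricter rules can only lower a share by construction. Outside clusters of 10 or more it was 40.7% of all and 46.8% of merged peaks. The merged minus single gap was 10.5 points with centres within 500 bp, and at least that with the other rules.

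Clusters depended on the link: 61.0% of peaks lay in clusters at 5000 bp and 83.3% at 20000 bp, and 18.4% and 52.3% in clusters of 5 or more. With merged peaks alone these shares were 57.9% and 16.4%, clusters numbered 3545, the median neighbour distance was 6623.5 bp and the X to autosome ratio 0.177; fewer peaks widen the spacing by construction. The merged share in clusters of 10 or more, 49.6% of their peaks, was 47.0% at 5000 bp. The ratio across 3 kb was 2.06 for merged and 1.51 for single AhR peaks, and that of gaps 2.85 for merged peaks and 1.56 with each occupied gap counted once. The cause of these shifts was not tested. The 3 kb, gap and merged H3K27ac alternatives were chosen after seeing the data. Gene windows and motifs were not run, since no mouse gene positions or genome were used here. Depth could not be used, since the lists give none.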
